A study of Homo sapiens with 32 samples.

Results

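The nuclear-encoded genes of the mitochondrial respiratory chain and of ATP synthase were examined here for contact with mRNA export factors. A gene was a member if it was protein-coding in the GRCh37 annotation, lay on a nuclear chromosome and had a name beginning with NDUFA, NDUFB, NDUFC, NDUFS, NDUFV, SDH (A to D), UQCR, COX4 to COX8 or ATP5. This gave 98 of 20163 protein-coding genes. They comprised 7 core subunits, 31 accessory subunits and 8 assembly factors of complex I, 4 genes of complex II, 9 of complex III, 19 of complex IV and 20 of complex V. NDUFA4 and NDUFA4L2 were counted in complex IV, and ATP5IF1, an inhibitor of ATP synthase, in complex V. The read-through gene NDUFC2-KCTD14 was counted with the accessory subunits and ATP5MF-PTCD1 with complex V. The rule used names only and no measured value, but it was set with earlier results of these data known.

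Contacts were mapped by iCLIP, in which UV light fixes a protein to the RNA it touches, the protein is pulled down, and sequencing shows the base at which reverse transcription stopped. Each deposited count is the number of deduplicated cDNAs (tags) at a crosslinked base. The cells, given as HEK293T and as FlpIn-293 in different labels, both lines derived from human embryonic kidney, expressed FLAG-tagged Alyref, Chtop or Nxf1 or, as Control, the empty FLAG construct, and all cells went through the same anti-FLAG precipitation. Tetracycline, given for 48 h, was used at 10 ng/mL in the Alyref and Chtop lines but at 5 ng/mL in the Nxf1 line, and the labels state no dose for Control. Each group had 3 libraries. Each tagged protein was made from an inducible transgene beside the cell's own copy. The labels do not say whether the libraries came from separate cultures, so that p-values measure only the spread between these libraries, which may be technical.

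Complexes I to IV pass electrons from NADH or succinate to oxygen and, with the exception of complex II, pump protons across the inner mitochondrial membrane, and complex V uses the returning protons to make ATP. Most subunits are encoded in the nucleus, so their mRNAs must leave the nucleus before the proteins are made and imported into mitochondria, while a small core is encoded by mitochondrial DNA and is not considered here. Alyref and Chtop are subunits of TREX, which couples transcription and processing of mRNA to its export, and Nxf1 is the receptor that carries the mRNA through the nuclear pore.

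Depth differed widely between libraries, from 7017 tags in Control replicate 1 to 631704 in Alyref replicate 2. Replicate 1 was the shallowest library of Alyref, Chtop, Nxf1 and Control, with 81307, 47052, 8134 and 7017 tags. Values are therefore given as CPM, the count scaled to the total of the library, and 3 tags, the upper limit that a count of 0 allows, corresponded to 4.75 CPM in the deepest library and to 428 CPM in the shallowest. In Alyref, Chtop and Nxf1 replicate 1 it corresponded to 36.9, 63.8 and 369 CPM. A value of 0 in an Nxf1 or Control library or in replicate 1 of Chtop thus says little about a single gene. RNA levels were not measured in these libraries, so for a difference between genes the amount of RNA and the contact per RNA cannot be told apart. For the same reason no marker of the cell line was checked.

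The members together held 5990 tags in the 12 libraries. Of these, 3075 lay in exons of the canonical transcript, 2288 in its introns and 627 in the gene beyond its ends, and a further 243 tags were left out because they lay in more than 1 gene on the same strand. The median member had 35.5 tags. At least 100 tags were found for 14 members, 10 to 99 for 70, 1 to 9 for 7, and none for 7. The 10 members with most tags held 39.8% of them. Members are short, with a median exonic length of 760.5 nt against 2921 nt for the other protein-coding genes.

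The 7 members without a counted tag were COX4I2, COX7A1 and COX8C, which encode tissue-restricted isoforms of complex IV subunits, ATP5MGL, a paralogue of the ATP synthase subunit gene ATP5MG, the read-through genes ATP5MF-PTCD1 and NDUFC2-KCTD14, and COX8A. COX8A, the ubiquitous isoform of its subunit, had 39 tags, all of which also lay in the gene model ENSG00000256100 and were left out. In the same way NDUFV2, a core subunit of complex I, kept 1 tag with 51 left out, and ATP5MF, a membrane subunit of ATP synthase, kept 2 with 55 left out. The other tissue-restricted isoforms were also near 0, with 1 tag for COX6A2, 4 for COX6B2, 3 for NDUFA4L2 and 8 for COX7B2, all 8 of the latter intronic and from Chtop libraries. Their widely expressed counterparts had 23 tags for COX6A1, 58 for COX6B1, 89 for COX4I1, 49 for COX7A2 and 23 for NDUFA4.

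The sum over members in exons was higher with Alyref than with Chtop. Alyref libraries held 1328, 1447 and 1295 CPM in member exons (mean 1357 ± 80.0, SD, n = 3), and Chtop libraries held 829, 874 and 829 CPM (mean 844 ± 26.2, SD, n = 3). The Alyref and Chtop ranges did not overlap, as was also so for 9.77% of single protein-coding genes (20 or more exon tags) in that direction. A single gene holds fewer tags than this sum, so that share is no background for the sum. Sums over cytosolic and over mitochondrial ribosomal protein genes separated in the same direction. The Nxf1 libraries spanned 615 to 1695 CPM and overlapped both, and the Control libraries spanned 325 to 855 CPM.

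In the exons of the other protein-coding genes the order was different. Alyref libraries held 382845, 432076 and 361787 CPM there, and Chtop libraries held 363832, 512876 and 578260 CPM, so that these groups overlapped and the Chtop mean was the higher. The 1904 other genes with a transcript under 1000 nt did as the members did, with 4985 ± 197 CPM in exons for Alyref and 3076 ± 293 for Chtop (SD, n = 3). The direction in the members was therefore shared with the sum over these short genes. That set also held ribosomal protein genes under 1000 nt, and the median exonic length of the cytosolic ones was 993.5 nt. How far they carried the sum was not tested. Per kilobase of exon the members had 8.88 ± 0.524 CPM with Alyref and 5.52 ± 0.171 with Chtop, against 5.49 ± 0.505 and 6.79 ± 1.54 for the other protein-coding genes (SD, n = 3).

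In member introns the Alyref libraries held 849, 1043 and 998 CPM and the Chtop libraries 701, 702 and 296 CPM. The Alyref values again lay above the Chtop values, but here the other protein-coding genes went the same way, with 325360 ± 56644 CPM for Alyref and 219647 ± 48236 for Chtop (SD, n = 3). Nxf1 introns spanned 983.5 to 1200 CPM and Control introns 570 to 1351 CPM. The exon share of member tags, the percentage of exon and intron tags that lay in exons, was 58.5% ± 2.30 with Alyref and 61.1% ± 10.9 with Chtop, against 47.6% ± 10.2 with Nxf1 and 42.0% ± 15.6 in Control (SD, n = 3). Among the other protein-coding genes it was 54.8% ± 4.93, 68.4% ± 8.22, 44.96% ± 18.7 and 27.98% ± 15.2 in the same order. For members the shares of all groups, Nxf1 included, overlapped one another. In other genes the Alyref libraries (49.7 to 59.5%) lay below the Chtop libraries (61.5 to 77.5%). Single Control libraries held 10 to 95 member exon and intron tags.

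**Figure D1:**
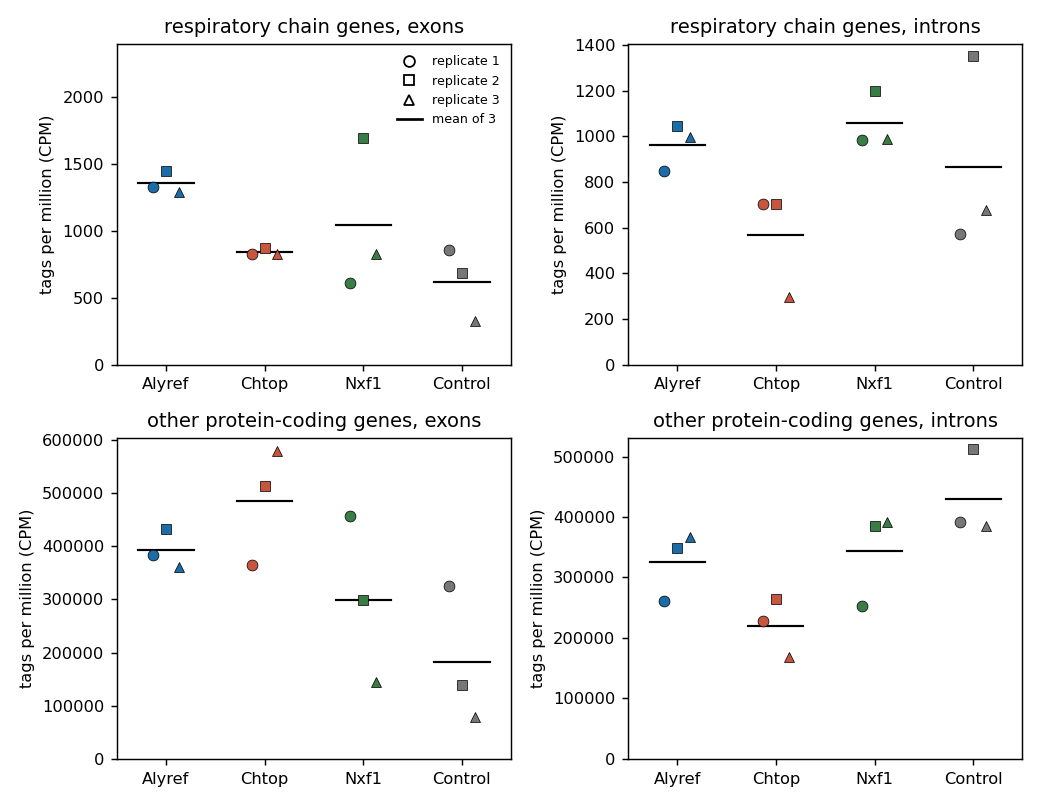
CPM, tags scaled to the total of the library, in exons (left) and introns (right) of the 98 respiratory chain genes (upper row) and of the other protein-coding genes (lower row), with 1 symbol per library, the symbol shape giving the replicate number and the line giving the mean of 3 libraries. In member exons the 3 Alyref libraries (1295 to 1447 CPM) lay above the 3 Chtop libraries (829 to 874 CPM), whereas in the exons of other genes these groups overlapped.

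The position of the tags along the transcript differed most. First exons of the 93 members with several exons had 34.4, 26.7 and 24.7 CPM per kilobase in the Alyref libraries. The Chtop libraries had 7.67, 5.86 and 4.83 there, Nxf1 22.2, 29.5 and 12.6, and Control 12.9, 7.74 and 7.32. All Alyref libraries thus exceeded all Chtop libraries, by a mean of 28.6 ± 5.13 against 6.12 ± 1.44 (SD, n = 3), while Alyref and Nxf1 overlapped.

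Middle exons followed the same direction with a smaller gap, at 18.3 ± 2.85 CPM per kilobase for Alyref and 10.6 ± 0.380 for Chtop, and last exons did not differ beyond their spread, at 3.49 ± 0.118 and 3.77 ± 0.271 (SD, n = 3). In the other protein-coding genes first exons had 7.96 ± 0.894 with Alyref and 7.10 ± 1.38 with Chtop, and last exons had 3.26 ± 0.172 with Alyref and 6.46 ± 1.70 with Chtop. Short other genes had lower levels than members but the same order, with 6.39 ± 0.413 in first exons for Alyref and 1.97 ± 0.794 for Chtop. Nxf1 and Control were also denser in member first exons, at 21.4 ± 8.50 and 9.31 ± 3.08, than in those of other genes, at 4.66 ± 2.17 and 3.37 ± 2.25, or of short other genes, at 4.30 ± 4.05 and 4.28 ± 4.00 (SD, n = 3). The Control density in members rested on 8 tags, and its range of 7.32 to 12.9 overlapped that of short other genes, 1.25 to 8.81. The higher density of member first exons was also seen with Nxf1 and was therefore not particular to Alyref, and no p is given for it.

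**Figure D2:**
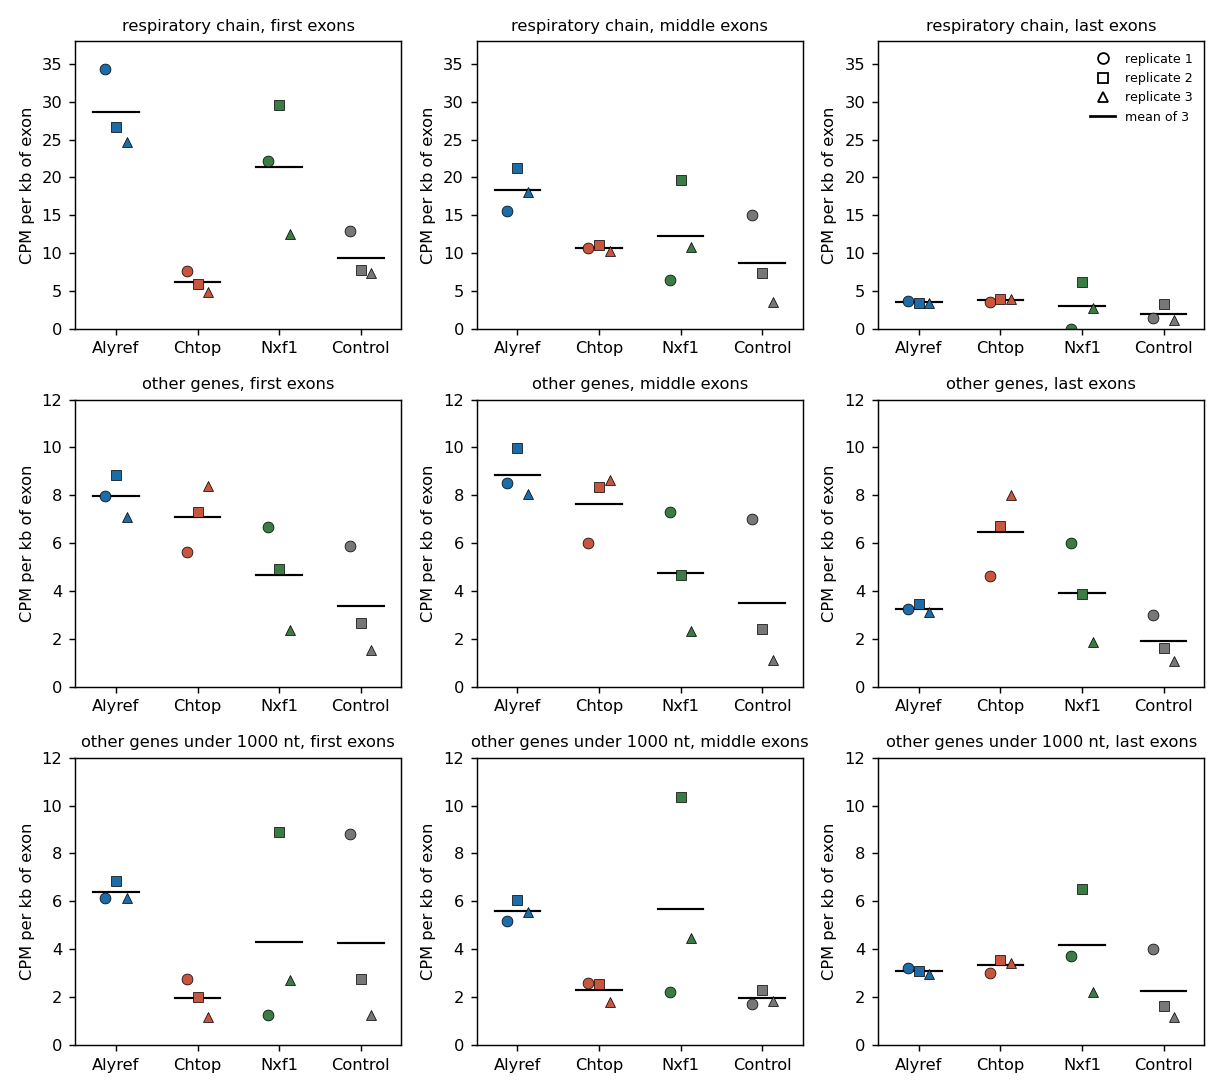
Tag density (CPM per kilobase of exon) in first, middle and last exons of the respiratory chain genes (upper row, axis to 38), of other protein-coding genes (middle row, axis to 12) and of other genes with transcripts under 1000 nt (lower row, axis to 12), with 1 symbol per library and a line at the mean of 3. Member first exons had 24.7 to 34.4 CPM per kilobase in the Alyref libraries and 4.83 to 7.67 in the Chtop libraries, and member last exons had means of 3.49 and 3.77. In the last exons of other genes the means were 3.26 with Alyref and 6.46 with Chtop.

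Over members of at least 3 exons, last exons were compared with first exons as the log2 of their densities' ratio, which was -3.07 ± 0.21 for Alyref and -0.54 ± 0.27 for Chtop (SD, n = 3), with no overlap. For Nxf1 it was -2.31 and -2.32 in replicates 2 and 3, and it could not be formed in replicate 1, which had 0 tags in member last exons. The Control value of -2.62 ± 0.68 (SD, n = 3) overlapped Alyref and rested on 8 first-exon and 15 last-exon tags. Pooled over libraries, the other protein-coding genes gave -1.31 with Alyref, -0.02 with Chtop and -0.31 with Nxf1.

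The same contrast appeared when the transcript was divided in other ways. The first 100 nt of the spliced transcript held 23.5% ± 2.86 of exonic member tags with Alyref and 8.13% ± 2.34 with Chtop (SD, n = 3), against 5.40% and 2.25% in other genes and 28.3% and 13.4% in other genes under 1000 nt. By annotation, 5′ UTRs held 12.2% ± 3.85 of exonic member tags with Alyref and 3.62% ± 1.35 with Chtop, against 7.92% and 5.33% in other genes. 3′ UTRs held 20.1% ± 1.66 with Alyref and 35.7% ± 3.21 with Chtop (SD, n = 3), against 28.17% and 44.97% in other genes. The Alyref and Chtop libraries did not overlap in either UTR, in members or in other genes, so this separation was not particular to the members. The coding part held 67.6% ± 5.05 and 60.7% ± 4.11, with ranges that overlapped. With Nxf1 and Control these shares varied so widely that no order could be read, at 27.7% ± 19.5 and 25.3% ± 21.7 in the first 100 nt and 8.13% ± 7.15 and 17.0% ± 7.82 in 5′ UTRs (SD, n = 3). The Control libraries thus did not lie below Alyref in either.

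The first-exon tags were spread over the members. Of 87 member first exons examined, 79 held at least 1 Alyref tag, 40 at least 1 Chtop tag and 36 at least 1 Nxf1 tag. These counts depend on depth, which differed between the groups, so they do not compare the breadth of contact. The 5 members with most such tags held 25.3% of the Alyref first-exon tags. They included NDUFA11 (26 Alyref tags, 1 Chtop tag) and NDUFA13 (23 and 1), both accessory subunits of complex I, and ATP5F1B (17 and 6), the catalytic beta subunit of ATP synthase. The counts per first exon are small.

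Around internal exon-exon junctions, the percentage of tags within 100 nt that lay 75 to 24 nt upstream was examined at 91 member junctions between exons of at least 100 nt. It was 36.6% ± 7.03 with Alyref and 24.5% ± 2.66 with Chtop, and varied more with Nxf1 (33.8% ± 16.0) and Control (13.3% ± 23.1; SD, n = 3). The Alyref libraries, at 44%, 35.9% and 30%, all exceeded the Chtop libraries, at 22.2%, 27.4% and 23.9%. Pooled over libraries the share was 33.9% of 439 tags for Alyref (95% Wilson interval 29.7 to 38.5) and 25.7% of 214 tags for Chtop (20.3 to 31.9), and these intervals overlapped. In members the pooled Control share was 22.2% of 9 tags (6.32 to 54.7), too few to set against Alyref, and Nxf1 replicate 1 held 2 tags. Other genes had 29.5% with Alyref, 25.1% with Chtop, 26.6% with Nxf1 and 28.3% with Control. There the Control interval (26.7 to 29.96, 3008 tags) overlapped that of Alyref (29.3 to 29.8). A higher share with Alyref than with Control was therefore not shown in either set. The intervals cover counting error only.

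Crosslinked bases in member exons were uracil in 48.4% of tags for Alyref (95% Wilson interval 46.1 to 50.7), 51.4% for Chtop (48.1 to 54.7), 51.1% for Nxf1 (45.9 to 56.3) and 34% for Control (22.4 to 47.8). The groups did not differ beyond these intervals except for Control against Chtop, whose intervals of 22.4 to 47.8 and 48.1 to 54.7 were just apart on 50 Control tags. In member introns the share was 58.3% with Alyref (55.7 to 61.0) and 65.8% with Chtop (61.7 to 69.7), and these intervals did not overlap. It was 60.4% with Nxf1 and 68.5% in Control. In introns of other genes it was 61.3% with Alyref and 59.4% with Chtop, the opposite order. The intervals pool libraries and cover counting error only.

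Gene by gene, 45 members had at least 20 exon tags over the 12 libraries. Since the deep Alyref and Chtop libraries decide which genes pass this minimum, the counts below describe those members and support nothing about all 98. The mean exon CPM was higher with Alyref than with Chtop in 38 of the 45, or 84.4%, against 41.2% of 8985 other protein-coding genes and 77.7% of 197 other genes under 1000 nt. The median log2 ratio, with 1 CPM added to each mean, was 0.66 for members, -0.21 for other genes and 0.89 for short other genes. In 14 of 45 members (31.1%) all 3 Alyref libraries lay above all 3 Chtop libraries, where 9.77% of all protein-coding genes tested did so, 25.4% of the short other genes, 42.9% of cytosolic and 20.0% of mitochondrial ribosomal protein genes. The reverse held for 1 member, NDUFS1 (2.22%), against 15.7% of all genes and 1.02% of the short other genes.

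**Figure D3:**
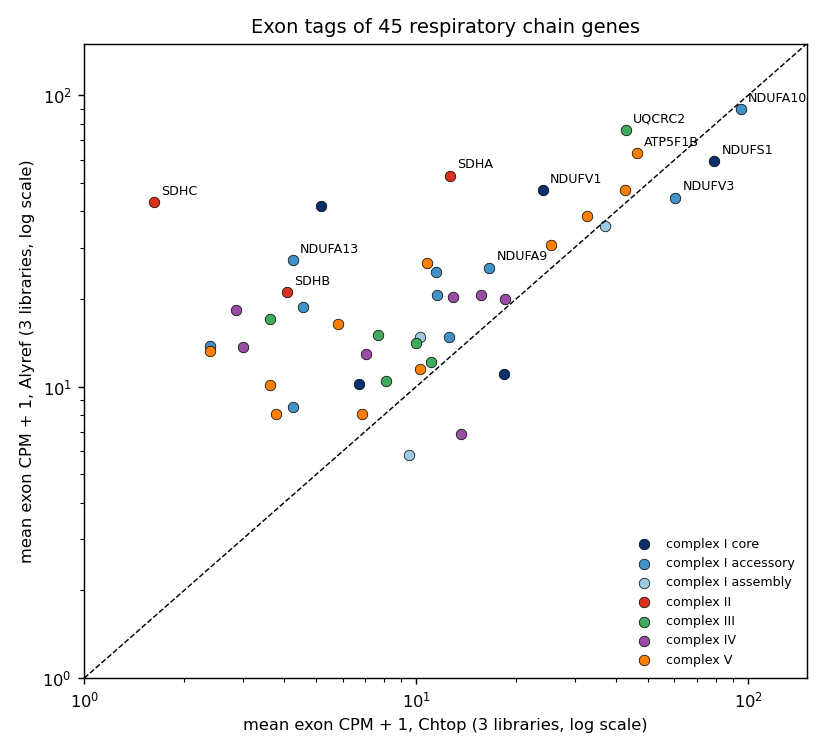
Mean exon CPM plus 1 over the 3 Chtop libraries (horizontal) and the 3 Alyref libraries (vertical), both on log scales, for the 45 members with at least 20 exon tags, coloured by complex, with the line of equality dashed. Of these, 38 lay above the line, SDHC farthest among the labelled genes.

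Without the 4 shallow libraries of replicate number 1, a choice made after the data were seen, both remaining Alyref libraries lay above both Chtop libraries in 30 of the 45 members (66.7%) and below them in 5 (11.1%). Under the same choice they lay above in 18.7% and below in 44.5% of other genes, and above in 55.3% and below in 5.08% of short other genes. The median log2 ratio of Chtop to Nxf1 was -0.27 over the 45 members, 0.95 over other genes, -0.79 over short other genes and -1.54 over cytosolic ribosomal protein genes, while that of Alyref to Nxf1 was 0.69 over members and 0.76 over other genes. All 3 Chtop libraries lay above all 3 Nxf1 libraries in 4 members (8.89%) against 23.7% of all genes, and below them in 1, ATP5F1B, against 0.687%. All 3 Alyref libraries lay above the Nxf1 libraries in 8 (17.8%) against 25.3%, and below them in ATP5F1B alone, against 0.786%. Compared with Control, all 3 libraries lay above all 3 Control libraries in 18 members with Alyref (background 44.5%), in 8 with Chtop (34.2%) and in 1, ATP5F1B, with Nxf1 (7%), while Chtop lay below Control in SDHC (0.199%), where each Control value was 1 tag. These comparisons share libraries and are not independent of each other.

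In introns 33 members had at least 20 tags. Of these, 28 (84.8%) had a higher mean with Alyref than with Chtop, close to the 79.0% of other genes. All 3 Alyref libraries were above all 3 Chtop libraries in 8 members (24.2%), against 19.6% of all genes: NDUFA10, NDUFA11, NDUFA12 and NDUFA13, accessory subunits, NDUFS7, a core subunit, UQCRC2 of complex III, and ATP5F1B and ATP5PO of complex V.

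Tests for single genes were limited by depth. In a fit over 2650 exon and intron features that passed the expression filter, only 3 features of members were tested, the exons of NDUFA10 and ATP5F1B and the introns of NDUFAF2. NDUFA10, an accessory subunit of complex I, had 98.4, 82.3 and 84.5 exon CPM with Alyref, 106, 77.9 and 97.8 with Chtop, and 0, 16.8 and 0 with Nxf1. The Alyref and Chtop libraries lay above those of Nxf1, which held 2 tags in all, and the 0 of Nxf1 replicate 1 allows up to 369 CPM. In Control 2 tags in replicate 1 made 285 CPM and the other libraries had none. The exons of NDUFA10 were higher with Alyref than with Nxf1 by 3.31 on the log2 scale (SE 0.92, edgeR quasi-likelihood test, Benjamini-Hochberg adjusted p = 0.0106) and higher with Chtop by 3.46 (SE 0.92, adjusted p = 0.00181). These exons passed the expression filter through Alyref and Chtop, the groups in which they were high, so that both calls are descriptions. As pooled counts, 111 Alyref tags and 2 Nxf1 tags gave a ratio of 12.9 (95% exact interval of the counts 3.496 to 108).

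ATP5F1B was the member with most Nxf1 tags in exons. Its exons had 36.9, 83.9 and 66.3 CPM with Alyref, 0, 61.2 and 74.5 with Chtop, 246, 193 and 112 with Nxf1, and 0, 0 and 27.0 with Control. The Nxf1 libraries lay above all others, although the highest of them, replicate 1, held 2 tags. The fitted value was lower with Alyref than with Nxf1 by -1.42 on the log2 scale (SE 0.49, edgeR quasi-likelihood test, Benjamini-Hochberg adjusted p = 0.0398) and lower with Chtop by -1.52 (SE 0.50, adjusted p = 0.00934). Neither call held under most alternatives: with DESeq2 the adjusted p was 0.125 and 0.0605, and without Nxf1 replicate 2 it was 0.471 and 0.356. A small nucleolar RNA, SNORD59A, lies within the gene, and 17 tags shared with it were left out.

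These were the 2 members called in Alyref against Nxf1, where 12% of all 2650 features were called, and in Chtop against Nxf1, where 55% were. No member feature was called in Alyref against Control (background 15.6%), Chtop against Control (47.7%), Nxf1 against Control (0.189%) or Alyref against Chtop (10.1%), and at an unadjusted p below 0.05 there were 2, 3, 1 and 0. In a further test of whether exons and introns of a gene move apart between groups, 5 members were tested (ATP5F1A, ATP5F1B, NDUFA10, NDUFV3 and UQCRC2) and 0 were called in any contrast. Of 3033 genes 0.0989%, 0.0659% and 0% were called against Control for Alyref, Chtop and Nxf1, 1.68% for Alyref against Chtop, and 1.48% and 1.98% for Alyref and Chtop against Nxf1. Unadjusted p fell below 0.05 for at most 1 of the 5 in a contrast. With so few members tested these counts do not describe the pathway.

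When every feature with at least 20 tags was kept, an alternative chosen after the data were seen, 45 exon and 33 intron features of members entered a fit over 18223. Then 5 of 45 member exons (11.1%) were called higher with Chtop than with Control, where 39.1% of all exon features were. NDUFS1, NDUFV3 and NDUFA10 of complex I, the assembly factor NDUFAF7 and ATP5F1B made up this group. For Alyref against Chtop, 1 of 45 member exons was called higher, SDHC, where 0.243% of all were. The fitted log2 values of the 45 were positive for 29 with a median of 0.33, against -0.85 over all exon features. NDUFA10 was again called for Alyref against Nxf1 (background 1.51% higher), and NDUFA10, NDUFAF7, NDUFV3 and ATP5F1C for Chtop against Nxf1 (36.6%). The deep Alyref and Chtop libraries decided which exons passed the minimum, so that these calls are descriptions. No member was called in Alyref against Control (0.362% of all features) or Nxf1 against Control (0%), with 12 and 5 member exons at an unadjusted p below 0.05, and no member intron was called in any contrast. Of all introns 0.0114%, 1.7% and 0% were called against Control for Alyref, Chtop and Nxf1, 0.446% for Alyref against Chtop, and 0.0114% and 1.99% for Alyref and Chtop against Nxf1.

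Among the core subunits of complex I, which carry the electron path from NADH to ubiquinone, NDUFS1 and NDUFV1 behaved differently from each other. NDUFS1, the largest subunit, which holds iron-sulfur clusters, had 61.5, 52.2 and 61.3 exon CPM with Alyref and 106, 65.0 and 62.9 with Chtop. It had 0, 41.9 and 39.0 with Nxf1 and no tag in any Control library. Alyref libraries lay just below Chtop libraries, and of its 154 exon tags 62 fell in the last exon of 9460 nt, 37 of these from Chtop and 19 from Alyref. Chtop was called higher than Control with the 20-tag minimum (edgeR quasi-likelihood test, Benjamini-Hochberg adjusted p = 0.0036, and 0.0129 without the shallow replicates). The pooled Chtop level was 1.99-fold the limit that 0 pooled Control tags allow. This ratio leaves out the counting error of the Chtop tags, so it is no lower bound.

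NDUFV1, which binds NADH and flavin, had 36.9, 49.1 and 53.0 exon CPM with Alyref and 21.3, 22.3 and 25.6 with Chtop, so that all Alyref libraries lay above all Chtop libraries. Its first intron, 1319 nt long, held 49 tags, or 37.2 per kilobase, the densest of the 26 introns with at least 20 tags, and 53.8% of its length is exonic in other isoforms.

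**Figure D4:**
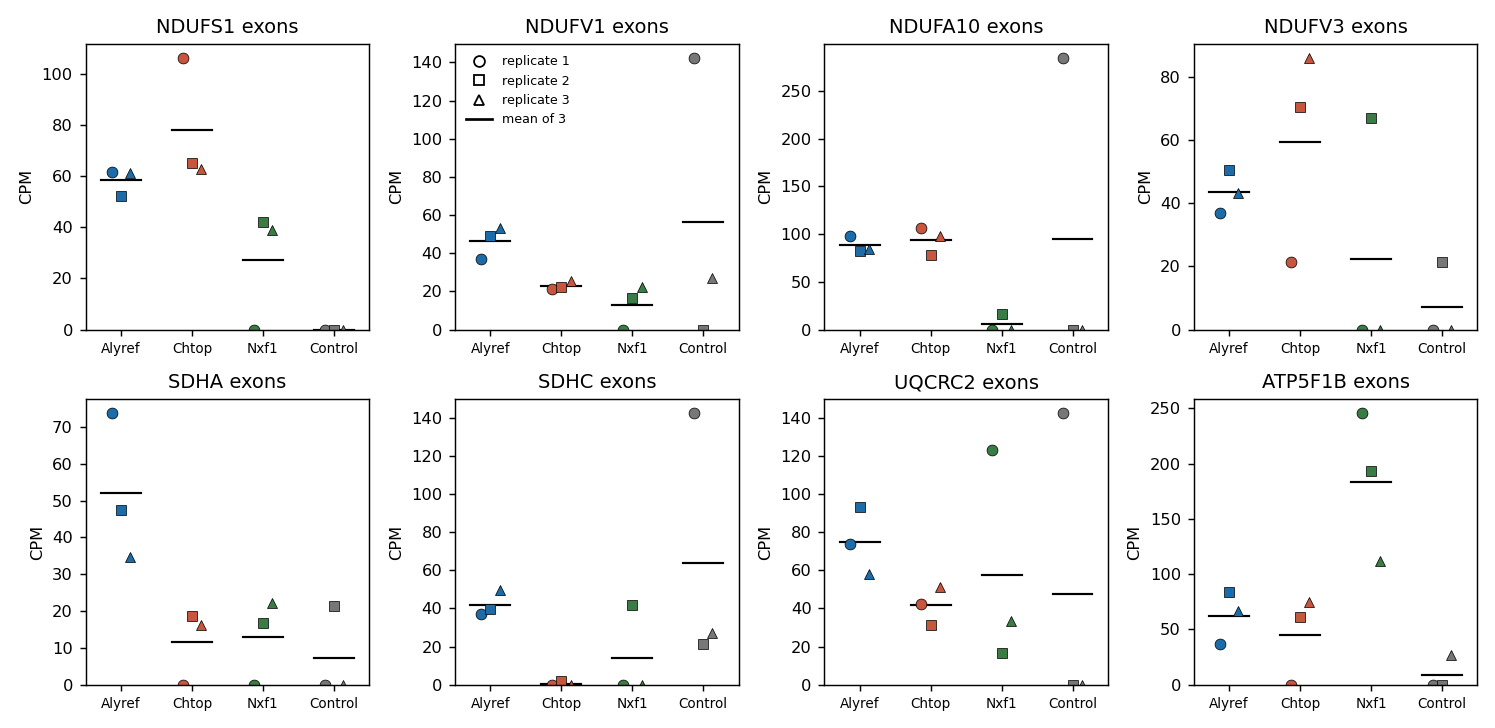
Exon CPM in each of the 12 libraries for 8 members, with 1 panel per gene, its own axis from 0, 1 symbol per library and a line at the mean of 3. NDUFV1, SDHA, SDHC and UQCRC2 had all Alyref libraries above all Chtop libraries, NDUFA10 was high with Alyref and Chtop and at 0 to 16.8 CPM with Nxf1, and ATP5F1B was highest with Nxf1. High Control points of NDUFV1, NDUFA10, SDHC and UQCRC2 are 1 or 2 tags in a library of 7017.

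The accessory subunits surround the core and contribute to assembly and stability. Summed over the 31 genes they had 383 ± 58.4 exon CPM with Alyref, 252 ± 53.6 with Chtop, 239 ± 140 with Nxf1 and 172 ± 104 with Control (SD, n = 3). NDUFA10 alone held 456 tags over all gene parts, of which its last exon of 3815 nt held 61 Chtop and 36 Alyref tags. Intron 5 (chr2:240951114-240954155, 3042 nt) held 61 tags, 45 of them from Alyref, and is wholly exonic in other isoforms, so that these tags may lie in exons of those isoforms. NDUFV3 had 36.9, 50.7 and 43.1 exon CPM with Alyref and 21.3, 70.5 and 86.1 with Chtop. Exon 3, an internal exon of 1095 nt that is included in a long isoform, held 44 Chtop and 22 Alyref tags. Middle exons of 500 nt or more in other genes also had more Chtop than Alyref contact, at 11.6 and 4.95 CPM per kilobase. In NDUFV3 48.9% of the 30-nt words of its exons occur elsewhere in the genome.

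In NDUFA13, an accessory subunit also known as GRIM-19, the contrast ran the other way. It had 24.6, 17.4 and 36.5 exon CPM with Alyref and 0, 7.42 and 2.33 with Chtop, and its first exon of 108 nt held 24 of 42 exon tags, 23 of them from Alyref. NDUFA11 had 24.6, 25.3 and 21.5 CPM with Alyref and 21.3, 5.57 and 4.66 with Chtop. NDUFAB1, the mitochondrial acyl carrier protein, had 12.3, 12.7 and 13.3 CPM with Alyref and 0, 1.86 and 2.33 with Chtop. All of these separated the groups, NDUFA11 narrowly, because its value in Chtop replicate 1 was a single tag. The 0 of NDUFA13 and NDUFAB1 in Chtop replicate 1 allows up to 63.8 CPM, above all of their Alyref values.

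The assembly factors help to build complex I and are not part of the finished enzyme. Their 8 genes had 99.1 ± 11.8 exon CPM with Alyref, 68.3 ± 35.0 with Chtop, 26.1 ± 36.0 with Nxf1 and 14.3 ± 24.8 with Control (SD, n = 3). NDUFAF2 had 169 intronic and 2 exonic tags, with 117 in its first intron of 127742 nt, or 0.92 per kilobase. Its introns had 12.3, 83.9 and 92.8 CPM with Alyref, 42.5, 55.7 and 11.6 with Chtop, 123, 33.6 and 33.5 with Nxf1 and 143, 193 and 27.0 with Control, and no contrast was called. NDUFAF6 had 222 tags, of which 172 lay in the gene beyond the ends of the canonical transcript, so that its exons held 19. NDUFAF7, a methyltransferase, had 44 Alyref and 25 Chtop exon tags and none in Nxf1 or Control libraries. Chtop was called higher than Nxf1 in the 20-tag fit (edgeR quasi-likelihood test, Benjamini-Hochberg adjusted p = 0.00609). The pooled Chtop level was 2.52-fold the limit that 0 pooled Nxf1 tags allow, without the counting error of the Chtop tags. NDUFAF5 had 19 Alyref, 4 Chtop, 2 Nxf1 and no Control exon tags.

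Complex II, succinate dehydrogenase, showed the largest ratio of the Alyref to the Chtop mean among the complexes, though not the largest difference of means. Its 4 genes together had 148, 117 and 103 exon CPM with Alyref and 0, 33.4 and 16.3 with Chtop, and the groups did not overlap. Nxf1 libraries had 0 to 92.3 CPM and Control libraries 27.0 to 143, the latter on 4 tags in all. Single genes separated without overlap in 3 of the 4, as 9.77% of all genes and 25.4% of the short other genes did in that direction. The value of Chtop replicate 1 was 0 in each, which allows up to 63.8 CPM. The log2 ratio of the Alyref to the Chtop mean, with 1 CPM added to each, was 2.07 for SDHA, 2.36 for SDHB and 4.73 for SDHC.

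SDHA, the flavoprotein that oxidises succinate, had 73.8, 47.5 and 34.8 exon CPM with Alyref and 0, 18.6 and 16.3 with Chtop. SDHB, the iron-sulfur subunit, had 24.6, 19.0 and 16.6 with Alyref and 0, 9.28 and 0 with Chtop. SDHC, a membrane anchor that helps bind ubiquinone, had 36.9, 39.6 and 49.7 with Alyref and 0, 1.86 and 0 with Chtop. SDHD, the other anchor, had 9 Alyref and 2 Chtop exon tags, too few to compare.

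SDHC was the member with the widest Alyref to Chtop gap. It held 58 exon tags with Alyref, 1 with Chtop, 5 with Nxf1 and 3 with Control, and the Alyref to Chtop ratio of the pooled counts was 44.7 (95% exact interval of the counts 7.72 to 1797). The fitted difference with the 20-tag minimum was 4.46 on the log2 scale (SE 1.03, edgeR quasi-likelihood test, Benjamini-Hochberg adjusted p = 0.00633), and adjusted p ranged from 0.000148 to 0.00423 in the other fits that called it. The exons of SDHC passed the 20-tag minimum through Alyref, the group in which they were high, so that this call is a description. With no low-count filter the adjusted p was 0.00423. The 3 Control libraries held 1 tag each, which put them above the Chtop libraries as well. Reads of SDHC were uncertain, since 76.0% of the 30-nt words of its exons occur elsewhere in the genome and only uniquely aligned reads were kept.

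For 1 exon with more tags from Alyref and 1 with more from Chtop, the 21-nt window with most tags is shown, 5′ to 3′ on the gene strand in GRCh37, with the crosslinked base at its centre in capitals. These exons were chosen after the values were seen. The window of NDUFA13 exon 1, chr19:19627033-19627053 (+), held 8 of 24 tags, 3 in Alyref replicate 2 and 5 in Alyref replicate 3. In NDUFV3 exon 3 the window chr21:44323285-44323305 (+), which also takes in the last bases of the preceding intron, held 5 of 67 tags, 2 in Alyref replicate 3, 1 in Chtop replicate 2 and 2 in Chtop replicate 3. The tags of NDUFA13 exon 1 covered 19 bases and those of NDUFV3 exon 3 covered 66, so that neither exon rested on 1 base.
NDUFA13 exon 1: tgggatactgCgagtatggcg
NDUFV3 exon 3: ttcccagatgTagtggaacca

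Complex III, the cytochrome bc1 complex, had 152 ± 9.46 exon CPM with Alyref and 91.7 ± 24.5 with Chtop (SD, n = 3). UQCRC2, a core protein of its matrix side, had 73.8, 93.4 and 58.0 CPM with Alyref and 42.5, 31.5 and 51.2 with Chtop. The Alyref libraries lay above the Chtop libraries in exons and also in introns, where they had 36.9, 53.8 and 54.7 CPM against 0, 33.4 and 16.3. UQCRC2 was called for Alyref against Chtop only when exons and introns were summed per gene, an alternative added later (log2 0.88, edgeR quasi-likelihood test, Benjamini-Hochberg adjusted p = 0.0465). UQCRQ, a small subunit, had 12.3, 12.7 and 23.2 exon CPM with Alyref and 0, 5.57 and 2.33 with Chtop, without overlap. The 0 in Chtop replicate 1, for UQCRQ exons and UQCRC2 introns alike, allows up to 63.8 CPM, above all of these Alyref values. UQCRH, the hinge protein, and UQCRC1, the other core protein, had 11 and 26 Alyref and 10 and 10 Chtop exon tags, with overlapping libraries.

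Complex IV, cytochrome c oxidase, had 126 ± 36.3 exon CPM with Alyref, 80.2 ± 24.3 with Chtop and 128 ± 130 with Nxf1, all overlapping (SD, n = 3). COX4I1, a regulatory subunit, had 30 Alyref and 12 Chtop exon tags, COX5A 22 and 7, COX7A2 16 and 8, and COX7A2L, which takes part in supercomplex assembly, 11 and 9. The libraries overlapped in each of these 4 genes. They separated, Alyref above Chtop, in COX6B1 (24.6, 20.6 and 6.63 CPM against 0, 5.57 and 0) and in COX7B (12.3, 15.8 and 9.95 against 0, 3.71 and 2.33), both small nuclear-encoded subunits. The 0 in Chtop replicate 1 allows up to 63.8 CPM, above all of these Alyref values. COX7B has 53.8% of its 30-nt words elsewhere in the genome.

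Complex V, ATP synthase, had 258, 332 and 297 exon CPM with Alyref, 170, 213 and 214 with Chtop, 369, 587 and 268 with Nxf1 and 0, 193 and 162 with Control. Alyref exceeded Chtop in all pairs of libraries, and the mean was highest with Nxf1, the sole complex apart from complex IV for which this was so. In the latter the Nxf1 and Alyref means were nearly equal. ATP5F1A, the alpha subunit, had 24.6, 64.9 and 49.7 CPM with Alyref, 42.5, 44.5 and 37.2 with Chtop and 123, 92.3 and 39.0 with Nxf1, and no pair of these groups was separated. ATP5F1C, the gamma subunit of the central shaft, had 43 Alyref and 18 Chtop exon tags and 0 with Nxf1, while its introns held 16 Nxf1 tags. Chtop was called higher than Nxf1 in its exons (20-tag fit, edgeR quasi-likelihood test, Benjamini-Hochberg adjusted p = 0.0145). The pooled Chtop level was 1.81-fold the limit that 0 pooled Nxf1 tags allow, without the counting error of the Chtop tags. ATP5MC2, a ring subunit, had 12.3, 22.2 and 11.6 exon CPM with Alyref and 0, 7.42 and 6.98 with Chtop, and ATP5MK 12.3, 7.92 and 16.6 against 0, 1.86 and 2.33.

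**Figure D5:**
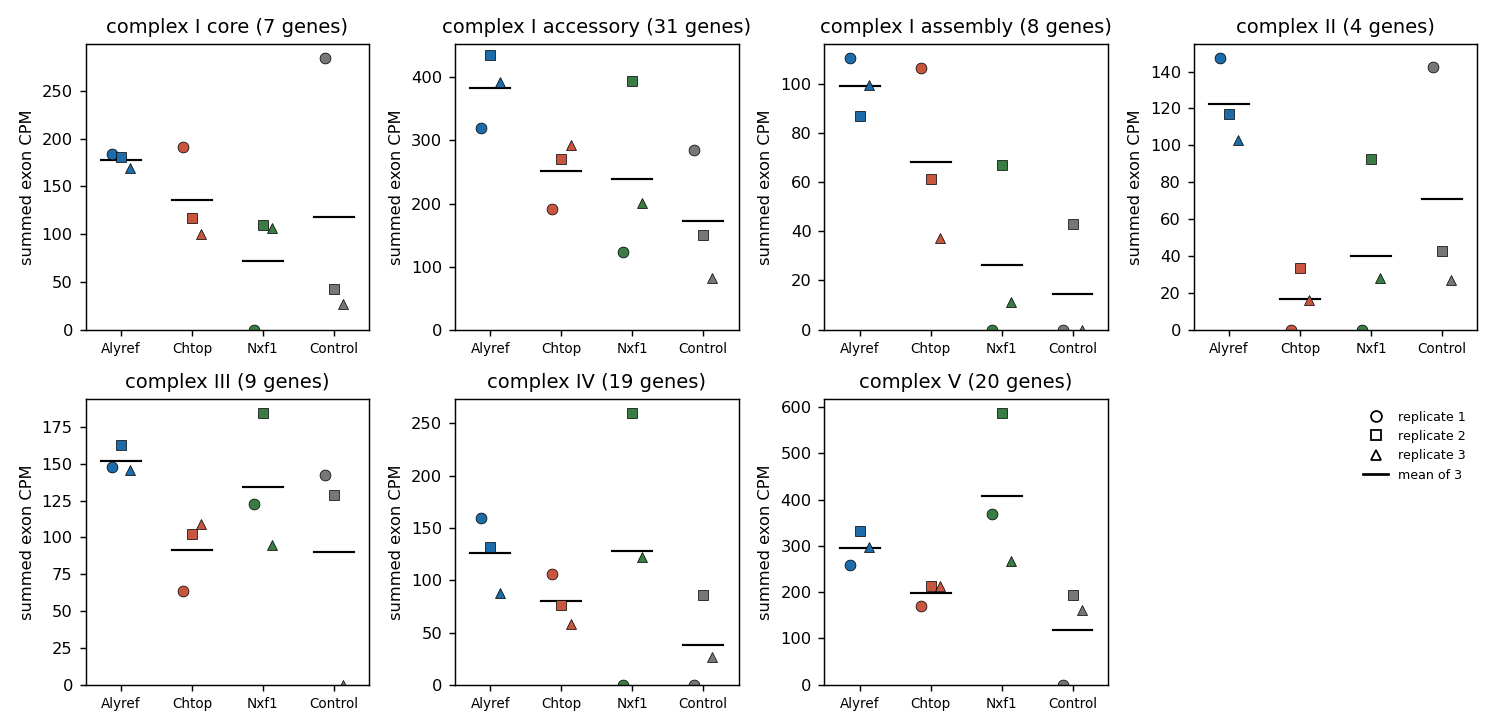
Summed exon CPM of the members of each complex in the 12 libraries, with 1 panel per complex, its own axis from 0, 1 symbol per library and a line at the mean of 3. Alyref libraries lay above all Chtop libraries in complexes II, III and V and in the accessory subunits of complex I, with the widest gap between the ranges in complex II (103 to 148 against 0 to 33.4 CPM).

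Introns carried fewer tags per kilobase than exons, 0.60 ± 0.064 CPM for Alyref and 0.35 ± 0.146 for Chtop (SD, n = 3). Of 407 member introns examined, 105 had no tag and 26 had at least 20. The members with the highest mean intronic CPM over the groups were NDUFAF2 (70.9), NDUFA10 (53.6), NDUFV3 (45.5), UQCRC2 (41.6), ATP5F1C (30.8) and NDUFS6 (29.3), the last an accessory subunit that binds zinc. Intron 3 of NDUFV3, 4587 nt long, held 28 Alyref and 25 Chtop tags, and intron 12 of UQCRC2, 4303 nt long, held 38 and 13. No tag of either came from Control.

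Recurrent crosslinking at a single base was rare. Among the members whose single bases were examined (not all members were), the base with most tags, in NDUFS7, a core subunit of complex I, had 7 tags from 5 libraries of Alyref, Chtop and Nxf1, and 21 tags lay within 15 nt of it. It lies outside the canonical transcript, at the start of the annotated gene. The next, in intron 2 of NDUFS6 and intron 3 of UQCRH, had 6 and 5 tags but came from 1 library each, Alyref replicate 3 and Nxf1 replicate 3, and each directly preceded a run of 12 or 14 T. A base in exon 3 of NDUFA10, in the coding part, also had 5 tags, all from Alyref replicate 3, with no T directly after it. In ATP5F1B a base of the first exon had 4 tags from 4 libraries, 2 of Alyref and 1 each of Chtop and Nxf1. These are shown because they set apart bases seen in several libraries from those seen in 1, with the crosslinked base in capitals and 10 nt on each side, 5′ to 3′ on the gene strand in GRCh37, at chr19:1383578-1383598 (+), chr12:57039645-57039665 (-), chr5:1803020-1803040 (+) and chr1:46777756-46777776 (+) in the order given.
NDUFS7: cggttagcgcGttcggctgtt
ATP5F1B: cagctcagctCttactgcggg
NDUFS6: aaatcagcctAtttttttttt
UQCRH: tgccttggtaAtttttttttt

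Of the 52 other genes fixed as respiratory chain components, assembly factors and regulators outside the naming rule, 36 had at least 20 exon tags. Chtop was called higher than Control in 13 of these (36.1%, against 39.1% of all exon features) and higher than Nxf1 in 10 (against 36.6%), and Alyref lower than Chtop in 1 (against 7.35%), TIMMDC1, a complex I assembly factor (log2 -2.49, SE 0.70, edgeR quasi-likelihood test, Benjamini-Hochberg adjusted p = 0.0230). SCO1, a copper chaperone of complex IV, had the smallest adjusted p of the 13 except one, at 0.000813, behind PPRC1, a transcriptional coactivator, at 0.000518. Their exon sum was 1007 ± 108 CPM with Alyref and 1279 ± 298 with Chtop (SD, n = 3), which overlapped, in the order of other protein-coding genes and not of the members. Their median exonic length was 2270.5 nt.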

How the data were processed

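The authors deposited counts of deduplicated reads (tags) at each crosslinked base, 1 file per library, after merging 32 lane runs into 12 libraries, and pooled files that were not used here. By the study's methods and the submitters' processing notes, phiX reads were removed with Bowtie 1.1.2, barcodes were handled with UMI-tools 0.5.3, reads over 15 nt were trimmed and demultiplexed with Reaper and aligned with STAR 2.4.2a to hg19 with Ensembl 75 junctions, and uniquely aligned reads were kept. The crosslinked base was the first deletion of the read or else the base before it. Unique alignment lowers counts in genes with near-identical copies.

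From these counts, tags were assigned by strand to genes of GENCODE 44 on GRCh37 (hg19). Exons and introns were those of the canonical transcript, and tags in several genes on a strand were left out. CPM used all tags of a library, from 7017 to 631704. Exon and intron features of all genes entered 1 edgeR 4.0.16 quasi-likelihood fit (R 4.3.3, TMM, filterByExpr, 4 groups, Benjamini-Hochberg, threshold 0.05). A second fit of exon and intron counts per gene (at least 10 tags) tested their balance. Shares and ratios between library groups are given as mean ± SD without a test, and shares with 95% Wilson intervals. The scripts were checked on simulated data.

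DESeq2 1.42.0 and other normalization, filters, annotations and overlap rules, left-out libraries and a replicate block were tried. The 98 members, the lists and the alternatives were chosen with earlier results of these data known. Genes were named by rule: the 4 members of each complex with the highest mean CPM, members called, the 6 with the highest intronic CPM, those with 0 tags and the read-through genes. Bases shown come from the 12 members with most tags at a base, without chromosome 8. Further genes with non-overlapping libraries, and the exon windows shown, were chosen after their values were seen. The number of columns of sample values left unused was 0. Some results on single genes and sites are not reported here.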

Additional observations from a re-analysis of the deposited data

How the results depend on the processing

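Counts of member features called in the 6 contrasts rested on few features and moved with the settings, in the order Alyref, Chtop and Nxf1 against Control, Alyref against Chtop, Alyref against Nxf1 and Chtop against Nxf1. The number of member features tested was 3 in the report, 174 with no low-count filter, 6 with exons of all transcripts or with exons and introns summed, 78 with a minimum of 20 tags, 30 without the libraries of replicate number 1, 75 with both and 2 to 8 with 1 library left out, so that the counts do not compare the same features. For Chtop against Control 47.7% of all features were called in the report and 21.2% with a minimum of 20 tags. The counts were 0, 0, 0, 0, 2 and 2 in the report, 0, 2, 0, 0, 1 and 1 with RLE normalization, 0, 0, 0, 0, 1 and 1 with DESeq2, 0, 1, 0, 1, 0 and 2 with no low-count filter, 2, 2, 1, 0, 1 and 2 with tags in overlapping genes counted for each, 0, 2, 0, 0, 1 and 1 with each base counted once, and 0, 1, 0, 0, 1 and 2 with exons of all transcripts. Alternatives chosen after the data were seen gave 0, 5, 0, 1, 1 and 4 with a minimum of 20 tags, 2, 5, 0, 2, 1 and 4 without the 4 libraries of replicate number 1, 2, 4, 0, 2, 3 and 7 with both, and 0, 0, 0, 1, 1 and 1 with exons and introns summed. Leaving out 1 library at a time gave 0 to 3 for Alyref against Control (3 without Alyref replicate 1, 1 without Alyref replicate 3 or Control replicate 1 or 3), 0 to 2 for Chtop against Control (2 without Alyref or Chtop replicate 1, 1 without Alyref replicate 3, Chtop replicate 2, Nxf1 replicate 1 or 3, or Control replicate 1 or 3), 0 to 1 for Nxf1 against Control (1 without Alyref replicate 1 or 3, Chtop replicate 1, Nxf1 replicate 1 or Control replicate 3), 0 to 0 for Alyref against Chtop, and 0 to 2 for both contrasts with Nxf1. In the latter the count was 0 without Alyref, Chtop or Nxf1 replicate 2 or 3, where the NDUFA10 exons no longer passed the filter and 2 member features were tested. It was 1 without Alyref replicate 1 in both, and for Alyref against Nxf1 also without Chtop replicate 1 or any Control library. Each alternative fit gave 2 results for a gene, 1 per contrast with Nxf1, and both used the same Nxf1 libraries. The call of NDUFA10 remained in 31 of 32 such results. It was lost for Alyref against Nxf1 with no low-count filter (edgeR quasi-likelihood test, Benjamini-Hochberg adjusted p = 0.0969). The call of ATP5F1B remained in 9 of 44 such results.

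The fit with a replicate block gave 0, 0, 0, 0, 1 and 2 member features, losing ATP5F1B for Alyref against Nxf1. Deviations from the group means correlated from -0.40 to 0.37 in 18 same-numbered pairs of libraries and from -0.35 to 0.33 in 36 pairs of unlike number, over 2650 features. These ranges were alike, so the number was not taken to pair the libraries, but they cannot exclude a batch. The titles give other HiSeq numbers for replicate 2 of every group than for the other replicates, and an effect of this was not tested.

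Exon-to-intron balance was called for 1 member without the libraries of replicate number 1 (Alyref against Chtop), with RLE normalization or with tags in overlapping genes counted for each (Alyref and Chtop against Nxf1) and with scaling by library total (Chtop against Nxf1), and for 0 otherwise. RLE normalization moved the median of all features by -0.50 for Alyref against Chtop and by 0.62 for Chtop against Nxf1 on the log2 scale. The Alyref exon share became 66.3% with exons of all transcripts, the Nxf1 last to first exon ratio -2.31 and -2.33 with overlaps counted for each and with each base once, and the Chtop junction share 27.4% with exons of 50 nt or more. The cause of these shifts was not tested. Depth limits single genes most in Nxf1 and Control, where 1 tag in the shallowest libraries exceeds the level of most members.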

Other observations

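Ribosomal protein genes, whose mRNAs are also short, showed the same order of Alyref and Chtop in exons. Those under 1000 nt are also among the short other genes above, so that these sets are not independent. The 102 genes of the cytosolic ribosome held 2703 ± 293 CPM with Alyref and 1418 ± 175 with Chtop (SD, n = 3), and the 78 genes of the mitochondrial ribosome, which makes the mitochondrially encoded subunits of the respiratory chain, held 1037 ± 66.2 and 795 ± 115. The mean was higher with Alyref in 88.1% of 84 cytosolic and in 62.2% of 45 mitochondrial ribosomal protein genes with at least 20 exon tags. In the cytosolic set the median share of 30-nt words that occur elsewhere in the genome was 48.9%, against 8.94% in the respiratory chain genes and 1.34% in the mitochondrial ribosomal set.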
